A study of Mus musculus with 4 samples.

Results

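Complex I of the respiratory chain, the NADH:ubiquinone oxidoreductase, was followed here through 36 nuclear genes named as its subunits. The genes were taken by name, and every probe set annotated to exactly 1 of them was used. Of the 36 genes, 29 had such a probe set (38 probe sets), out of 8251 genes annotated in this way on the array. A filter on weak signal was passed by 27 of the 29, out of 5653 genes in all, and Ndufa12 and Ndufc2 lay under it. Ndufa11, Ndufb4, Ndufs5 and Ndufs6 were named only on probe sets that also name another gene, and Ndufa4, Ndufs7 and Ndufs8 on none; these 7 were not analysed here.

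The arrays held total RNA from mouse ventricle at baseline, before any pressure overload, 2 from mice without ERRα (gene Esrra) and 2 from wild-type mice. Each was a one-colour Affymetrix oligonucleotide array, and the comparison is of baseline gene expression between the genotypes. The design of the knockout allele, the strain, the age and the sex of the mice, and whether a sample pooled several hearts, are not given in the sources used here. Nothing in the labels ties the numbered samples to separate animals. The p-values therefore cover only the spread among these samples, and that spread may be technical.

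Complex I takes electrons from NADH, passes them through a flavin and a chain of iron-sulfur clusters to ubiquinone, and pumps protons across the inner mitochondrial membrane. It is L-shaped: a matrix arm carries the redox centres, and a membrane arm carries the proton channels. The core of the matrix arm is encoded in the nucleus and the core of the membrane arm in mitochondrial DNA, and both are surrounded by nuclear-encoded accessory subunits that stabilise the complex and are needed for its assembly. Heart muscle is rich in mitochondria, and ERRα, with its coactivator PGC-1α, is known as a regulator of nuclear genes of oxidative phosphorylation.

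The deposited value is a signal, a linear intensity per probe set scaled to a common level on each array. Differences are knockout minus wild type on the log2 scale, after signals under 110 were set to 110, with the standard error (SE) of limma's fit over 7453 probe sets. Where a gene had several probe sets, the one with the highest mean stood for it in counts and medians. A probe set was called at a Benjamini-Hochberg adjusted p under 0.05, and groups were said not to overlap when both knockout arrays lay on 1 side of both wild-type arrays. With 2 arrays in each group, the smallest two-sided p of an exact permutation test is 0.333. Levels of different genes cannot be compared, since each probe set has its own response. In bulk tissue, fewer cells of a type and less RNA per cell cannot be told apart.

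Esrra served as the check of the labels. Its weaker probe set gave 2688 and 2828 on the wild-type arrays and 83.6 and 55.2 on the knockout arrays, with both knockout arrays under the floor. It was the 1 probe set called of 7453 (0.0134%; log2 -4.65 against the floor, SE 0.19, limma adjusted p = 0.0441), a call that was lost in 8 of 13 alternatives although the difference was -3.02 or lower in each. The stronger Esrra probe set gave 8598 and 8039 against 922 and 1050 (log2 -3.08, adjusted p = 0.179). Of the markers of other cell types, the 7 fibroblast genes summed to 62110 and 73170 in wild type and 84949 and 89270 in knockout, with 6 of 7 higher without overlap. The 4 atrial genes summed to 10715 and 8885 against 17396 and 17050, all 4 higher without overlap. The 5 smooth muscle genes summed to 10245 and 9092 against 23903 and 16520, with 1 higher without overlap. That gene, Acta2, gave 4135 and 2909 against 18753 and 10916, and the other 3 smooth muscle genes kept had a lower mean in knockout. The 7 endothelial genes summed to 19716 and 17137 against 15809 and 15019, with 2 lower without overlap. The 5 adipocyte genes measured summed to 4246 and 4149 against 3849 and 3835. Among the 3 kept, 1 was lower (Cidea) and 1 higher (Adipoq) without overlap. Adipoq had a wild-type mean of 243, under the level of the filter, and was kept through its knockout mean of 645. Its count as higher depends on that selection. The sums of the 10 immune and the 3 measured erythroid genes overlapped between the groups. Over all probe sets kept, 16.7% were lower and 20.7% higher without overlap. No marker was listed at 0.

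Transcripts of complex I subunits had lower signals in the knockout ventricles as a group, by small amounts, and none passed the test alone. Of the 27 genes kept, 25 had a lower mean in knockout, where 46.8% of all probe sets tested did. In 15 of the 27 (55.6%) both knockout arrays lay below both wild-type arrays, against 16.7% of all probe sets, and in 0 of the 27 they lay above, against 20.7%. The median log2 difference was -0.18, a ratio of 0.880 of knockout to wild type, and the median over all probe sets was 0.03. Adjusted p-values of the 27 ran from 0.740 (Ndufb3) to 0.993 (Ndufa6) in limma's fit. In that fit no member had an unadjusted p under 0.05, as 2.66% of all probe sets did in the downward direction. Some alternatives gave members with such a p, as listed at the end.

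Most of these transcripts gave strong signals. Among the 1491 probe sets of the brightest of 5 bins, with mean signals from 3646 upwards, lay 24 of the 27 genes. That bin as a whole had a median difference of -0.05, with 57.6% of its probe sets lower and 24.1% lower without overlap, whereas the weakest bin had a median of 0.14. The replicate SD was 0.12 on the log2 scale for the median member, 0.16 for the median probe set of the brightest bin and 0.25 over all probe sets.

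**Figure D1:**
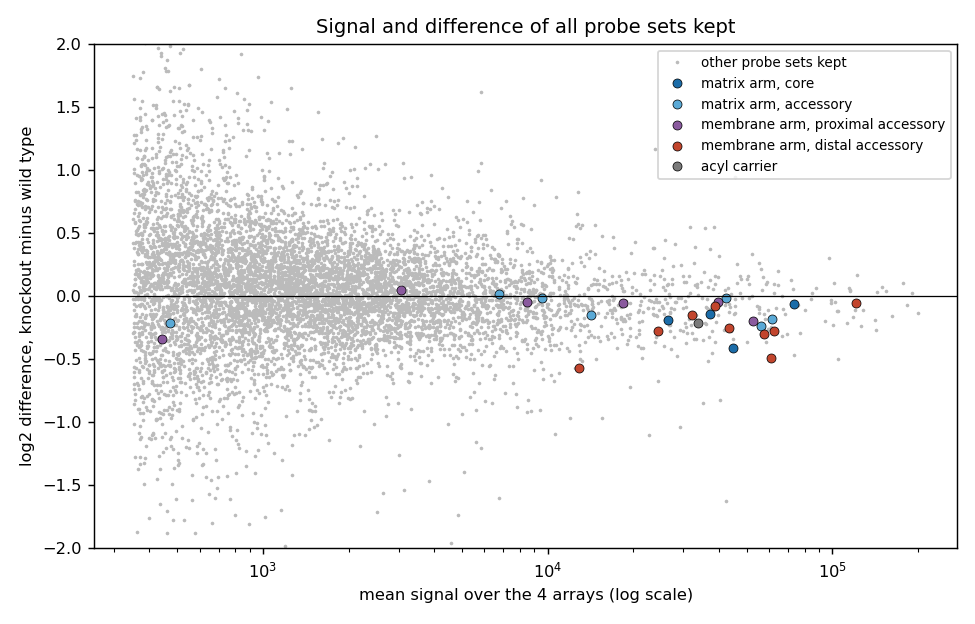
Each grey point is 1 of the probe sets kept, by its mean signal over the 4 arrays (x axis, log scale) and its log2 difference, knockout minus wild type (y axis); coloured points are the 27 complex I genes by position in the complex. 24 of the 27 lie in the brightest of 5 bins, and 25 lie below 0; 20 probe sets fall outside the plotted range of -2 to 2.

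Array by array, the members sat at a median of 0.10 and 0.08 above their own means over the 4 arrays on wild-type replicates 1 and 2, and at -0.13 and -0.04 on knockout replicates 1 and 2. Knockout replicate 1 held the lowest value for 17 genes and knockout replicate 2 for 9; Ndufa6 was lowest on wild-type replicate 1. Knockout replicate 1 lay below wild-type replicate 1 for 25 genes and below wild-type replicate 2 for 24. Knockout replicate 2 lay below them for 21 and 22, so the lower signals were seen on both knockout arrays. The replicates also differed among themselves: knockout replicate 1 lay below knockout replicate 2 for 18 genes, by a median of 0.09. The wild-type arrays differed in both directions, with a median of replicate 1 minus replicate 2 of -0.16 in the matrix accessory group and 0.13 in the distal membrane group. Without any 1 array the median stayed between -0.19 and -0.13.

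Scaling moved the size of the group's difference and not its direction. The median of the members was -0.11 after quantile normalization, -0.31 after scaling the arrays to 1 median, and -0.07 after scaling them to the cardiomyocyte markers, an alternative added after those markers had been seen. The last 2 scalings moved the median of all probe sets as well, by -0.13 and 0.12. Relative to that median the members lay at -0.21 as deposited and under both of them. Both divide each array by 1 number and so shift all probe sets above the floor alike. The same -0.21 under them was therefore fixed in advance. Quantile normalization could change this distance, and after it the members lay at -0.11. Members lower without overlap numbered 9, 18 and 7 of 27 under the 3 scalings, and 0 were higher. Among all probe sets, 18.2% were lower and 18.6% higher without overlap after quantile normalization, 27.1% were lower and 12.8% higher after median scaling, and 8.88% and 29.2% after scaling to the cardiomyocyte markers.

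The 9 cardiomyocyte markers measured had their lowest sum on knockout replicate 1. Their summed signal was 1097286 and 1077251 in wild type and 904811 and 1082241 in knockout, and 8 of 9 had a lower mean in knockout, 3 of them without overlap (Mb, Tnni3 and Tnnt2). Their median deviations were 0.08, 0.05, -0.19 and 0.03 on wild-type replicates 1 and 2 and knockout replicates 1 and 2. The 5′ to 3′ signal ratio of β-actin, a sign of RNA length, was 0.966 and 0.909 in wild type and 0.694 and 0.813 in knockout, and that of Gapdh 1.04 and 1.01 against 0.994 and 0.968. Both knockout arrays lay below both wild-type arrays in these ratios, and 6 of 7 fibroblast markers lay above. The part of these measures in the lower complex I signals was not tested.

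**Figure D2:**
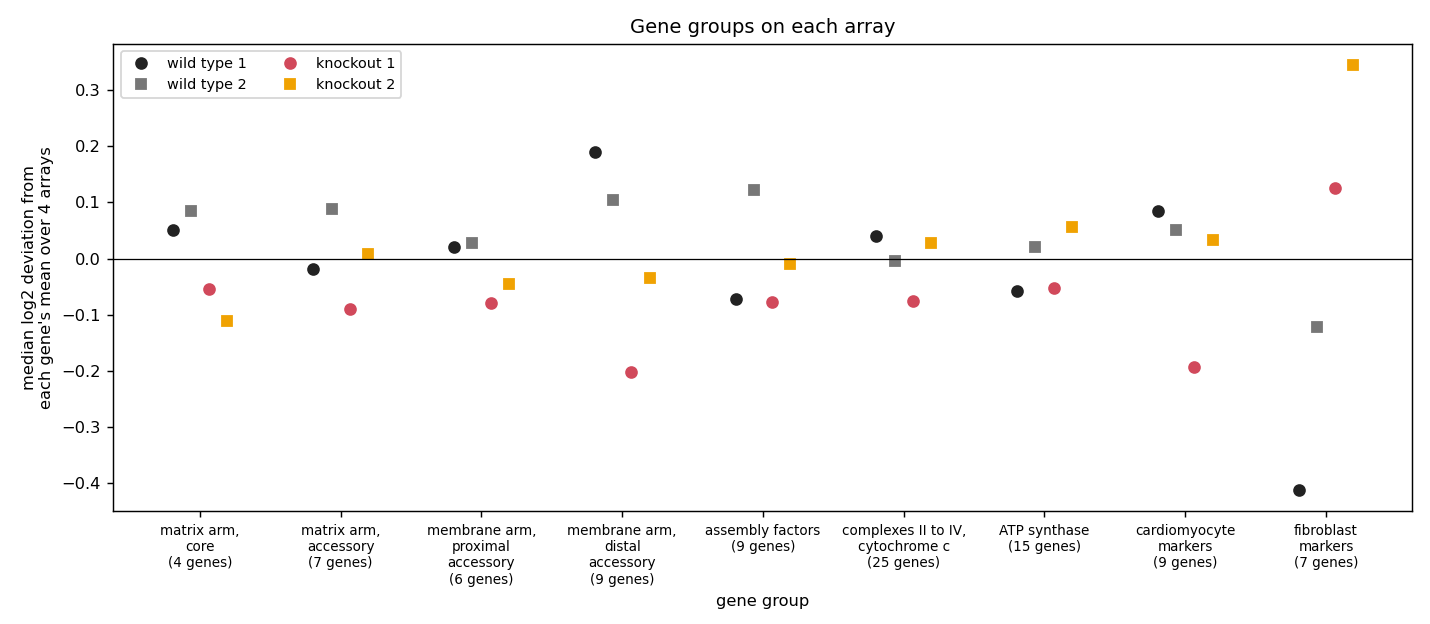
Median, over the genes of a group, of the log2 deviation from each gene's own mean over the 4 arrays (y axis), for each array (points) and gene group (x axis, with the number of genes kept). Both wild-type arrays lie above both knockout arrays for the matrix arm core, the proximal and the distal membrane arm, and the cardiomyocyte markers. Knockout replicate 1 is lowest for the distal membrane arm (-0.20) and the cardiomyocyte markers (-0.19). It is also lowest for the matrix accessory group (-0.09), the proximal membrane arm, the assembly factors and complexes II to IV (-0.08 each). The fibroblast markers run the other way.

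The promoters of these genes are shown because ERRα acts on its targets through DNA. Windows from 250 bases before to 50 after the RefSeq gene start (assembly GRCm38.p6) were held for 26 of the 29 measured genes. The 29 lie on 14 chromosomes, with at most 4 on any of them. The windows had a median GC content of 59.5%, against 52.7% over all 32851 windows. They were searched on both strands for the core letters of 3 factors of nuclear respiratory genes: AAGGTCA for ERR, CCGGAAG for GABP and other ETS factors, and GCGCATGC for NRF-1. The ends of the first and the second motif can share letters, and no matches overlapped in the windows printed. AAGGTCA was found in 1 of the 26 genes, Ndufb2, and in 4.72% of all windows. CCGGAAG was found in 3 genes, Ndufb6, Ndufb7 and Ndufs3 (8.86% of all windows), and GCGCATGC in 2 genes, Ndufa6 and Ndufa8 (2.71%). The other 20 genes held none of the 3 in this window. Of the genes with a match, Ndufb6 (log2 -0.15), Ndufa6 (log2 0.01) and Ndufa8 (log2 -0.05) had overlapping groups. A match is a description of letters, binding was not measured, and a link between matches and differences was not tested.

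The 4 windows printed, 5′ to 3′ on the strand of the gene, are those of Ndufb2 (chr6:39592315-39592614, plus strand), the gene with the ERR letters, Ndufs3 (chr2:90904672-90904971, minus strand) and Ndufb7 (chr8:83566508-83566807, plus strand), which hold the GABP letters and were among the members with the largest differences, and Ndufb3 (chr1:58586147-58586446, plus strand), which had the largest difference and no match. Capitals mark a motif match on either strand: AAGGTCA in Ndufb2, CCGGAAG in Ndufb7, and CCGGAAG with its reverse complement in Ndufs3.
Ndufb2: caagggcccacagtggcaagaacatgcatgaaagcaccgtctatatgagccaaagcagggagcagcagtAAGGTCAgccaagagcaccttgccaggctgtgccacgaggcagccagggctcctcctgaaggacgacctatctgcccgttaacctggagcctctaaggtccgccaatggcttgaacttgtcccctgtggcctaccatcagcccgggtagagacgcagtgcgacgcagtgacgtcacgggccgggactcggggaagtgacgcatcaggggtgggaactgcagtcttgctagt
Ndufs3: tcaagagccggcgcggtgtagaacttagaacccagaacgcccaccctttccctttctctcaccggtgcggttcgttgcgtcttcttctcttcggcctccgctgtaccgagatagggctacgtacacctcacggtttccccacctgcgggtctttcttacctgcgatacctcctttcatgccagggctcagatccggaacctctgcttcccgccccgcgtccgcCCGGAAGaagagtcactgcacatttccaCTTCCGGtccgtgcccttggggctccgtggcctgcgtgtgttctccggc
Ndufb7: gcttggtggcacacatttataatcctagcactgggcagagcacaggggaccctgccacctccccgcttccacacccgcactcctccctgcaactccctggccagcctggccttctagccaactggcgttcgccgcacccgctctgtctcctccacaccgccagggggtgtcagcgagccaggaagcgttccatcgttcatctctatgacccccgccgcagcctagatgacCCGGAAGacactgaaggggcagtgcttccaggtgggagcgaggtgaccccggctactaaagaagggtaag
Ndufb3: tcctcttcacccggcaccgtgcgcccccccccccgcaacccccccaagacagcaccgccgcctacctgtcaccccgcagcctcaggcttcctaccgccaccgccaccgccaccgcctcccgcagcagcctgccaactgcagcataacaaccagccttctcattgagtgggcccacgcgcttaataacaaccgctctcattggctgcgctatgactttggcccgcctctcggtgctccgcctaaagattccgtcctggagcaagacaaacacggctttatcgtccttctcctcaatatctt

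The core of the matrix arm was represented by 4 genes, and in all 4 both knockout arrays lay below both wild-type arrays in the deposited signals. All 4 also did so after median scaling. After quantile normalization, and after scaling to the cardiomyocyte markers, Ndufs3 alone did. The median log2 difference was -0.17, and 0 of 4 passed. Ndufs3, a core subunit of the part of the arm that faces ubiquinone, gave 55088 and 47332 on the wild-type arrays and 37261 and 39492 on the knockout arrays. The knockout signals were 25.1% lower on average, with a gap between the groups larger than the spread within either (log2 -0.41, SE 0.21, limma adjusted p = 0.791). Its promoter is the one above with 2 GABP matches.

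Ndufs1, the large iron-sulfur subunit through which electrons leave the flavin, gave 26390 and 30018 in wild type and 25480 and 23863 in knockout. The groups did not overlap, but the lower wild-type array lay close to the higher knockout array (log2 -0.19, SE 0.21; -0.10 without wild-type replicate 2). Ndufv2, an iron-sulfur partner of the flavin subunit, gave 39085 and 39160 against 35746 and 35249, a difference of 9.27% with tight replicates in both groups. A second, weaker Ndufv2 probe set gave 2668 and 3335 against 2608 and 3497, with overlapping groups and a log2 difference of 0.02. Ndufv1, which binds NADH and the flavin, gave 75006 and 74824 against 73320 and 70390, 4.08% lower. Its direction was 0.07 after quantile normalization and 0.06 after scaling to the cardiomyocyte markers, on the log2 scale.

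The accessory subunits of the matrix arm differed less clearly between the groups. Of 7 genes kept, 6 had a lower mean in knockout, 1 without overlap, and the median was -0.15; 0 passed. Leaving out any 1 of the 4 arrays moved it by over 1.5 times, to between -0.10 and -0.06. Ndufa7, a small subunit at the base of the arm, was the 1 gene without overlap, with 67543 and 62790 in wild type and 55574 and 59128 in knockout (12.0% lower, log2 -0.18, SE 0.20). Ndufa5 gave 52171 and 69914 against 47192 and 55360, and wild-type replicate 2 stood above the other arrays (log2 -0.24, SE 0.25). The difference was -0.03 without that array and -0.13 without knockout replicate 1. Ndufv3, a small subunit attached to the flavin-binding part, gave 13939 and 15886 against 12670 and 14199, so that the groups overlapped (log2 -0.15, SE 0.21), and the difference ran from -0.24 to -0.06 without any 1 array.

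Ndufs4, whose loss causes Leigh-like encephalopathy in mice, gave weak signals of 633 and 393 in wild type and 473 and 390 in knockout. Wild-type replicate 1 carried its lower mean in knockout, and without that array the log2 difference was 0.13 in place of -0.22. Ndufa9, which holds a nucleotide at the junction of the arms, gave 45259 and 39877 against 39667 and 44287. Ndufa2, a subunit with a thioredoxin-like fold, gave 9097 and 10167 against 8977 and 10051. For both genes the groups overlapped almost fully, at log2 -0.02 each. Ndufa6, a subunit that binds the acyl carrier protein, was the 1 gene of this group with a higher mean in knockout, with 6239 and 7177 against 6533 and 6981 (log2 0.01). Ndufa12, a relative of an assembly factor of the complex, lay under the filter with 212 and 112 against 172 and 69.7.

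Accessory subunits of the membrane arm next to the matrix arm had a median close to 0. Of 6 genes kept, 5 had a lower mean, 2 of them without overlap; the median was -0.05. It was -0.01 after quantile normalization and 0.06 after scaling to the cardiomyocyte markers. Ndufa3, a small single-span membrane protein, gave 57612 and 55184 in wild type and 48009 and 50095 in knockout on its stronger probe set (log2 -0.20, SE 0.20). Its weaker probe set ran the other way, with 1640 and 1019 against 1770 and 1824 (log2 0.48, SE 0.30), also without overlap, and from 0.13 to 0.82 when either wild-type array was left out. The 2 Ndufa3 probe sets thus disagreed in direction, and their mean was higher in knockout (log2 0.14). Ndufa13, also known as GRIM-19, gave 8791 and 8406 against 8287 and 8325, 3.40% lower without overlap.

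Ndufa1, an X-linked subunit needed for assembly of the membrane arm, gave 730 and 283 in wild type and 488 and 263 in knockout, so that replicate 1 was well above replicate 2 in both groups (log2 -0.34, SE 0.58). Its other probe set lay under the filter at 59.0 and 117 against 65.8 and 124. Ndufa8, a disulfide-bonded protein of the intermembrane space, gave 18109 and 19207 against 16405 and 19652, with the highest and the lowest value both in knockout. Ndufc1, a small membrane subunit, gave 39283 and 41492 against 34528 and 44055, again with the knockout arrays at both ends. Ndufa10, a subunit with the fold of a nucleoside kinase, had the higher mean in knockout, with 3016 and 3001 against 3353 and 2896 (log2 0.05, SE 0.21). That difference came from knockout replicate 1, without which it was -0.06. Ndufc2 lay under the filter, with 107 and 354 against 681 and 120.

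The accessory subunits at the far end of the membrane arm are the Ndufb family. All 9 genes kept had a lower mean in knockout, 7 of them without overlap, and the median log2 difference was -0.28; 0 passed, and no test compared this group with the others. The median was -0.13 without knockout replicate 1, where that of the matrix core was -0.19, and -0.38 without knockout replicate 2, since knockout replicate 1 lay below knockout replicate 2 for 7 of the 9 genes, by a median of 0.20. Against the wild-type arrays, knockout replicate 2 still lay below wild-type replicate 1 for 9 genes and below wild-type replicate 2 for 7. After scaling to the cardiomyocyte markers the median was -0.16, and after scaling to the array median -0.40.

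Ndufb3, a small membrane subunit mutated in some human complex I deficiencies, had the largest difference and the lowest p of all members. It gave 14451 and 16308 in wild type and 11367 and 9355 in knockout, 15380 ± 1313 against 10361 ± 1423 (SD, n = 2 each). The knockout arrays were 32.6% lower on average, and the gap between the groups was wider than the range within either (log2 -0.57, SE 0.22, limma adjusted p = 0.740). Its adjusted p ran from 0.547 to 0.892 over the alternatives. Ndufb7, which faces the intermembrane space, gave 77440 and 64540 against 42276 and 59558, 28.3% lower (log2 -0.49, SE 0.27). Most of that difference came from knockout replicate 1, with knockout replicate 2 just under wild-type replicate 2. A second Ndufb7 probe set lay under the filter, at 47.6 and 115 against 93.3 and 107.

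Ndufb8, a subunit often used as an antibody marker of assembled complex I, gave 66046 and 60404 in wild type and 45440 and 57707 in knockout (18.4% lower, log2 -0.30, SE 0.23), and the difference was -0.13 without knockout replicate 1. Ndufb2, the gene with the ERR letters in its promoter, was lower without overlap on both of its strong probe sets. The stronger gave 71345 and 65296 against 53846 and 58766, and the other 67086 and 65529 against 51663 and 60335, at log2 -0.28 and -0.25, the latter -0.14 without knockout replicate 1. Those probe sets read the same transcript and are not separate evidence. Both are of the kinds left out as cross-hybridizing, and Ndufb2 was not among the 23 members left without these kinds. The same held for Ndufa3, Ndufa5 and Ndufb5. The other 2 Ndufb2 probe sets, under the filter, gave 15.5 to 60.6 on all arrays. Ndufb11, an X-linked membrane subunit, gave 26631 and 26991 against 20604 and 23706 (log2 -0.28, SE 0.20), and the wild-type arrays differed by less than the gap to either knockout array. Its difference was -0.18 without knockout replicate 1. Ndufb10, a disulfide-bonded subunit, gave 47230 and 46615 against 36080 and 43050 (log2 -0.25, SE 0.21), and the difference was -0.12 without knockout replicate 1 and -0.38 without knockout replicate 2.

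The remaining Ndufb genes differed less. Ndufb6, a membrane subunit, gave 36479 and 31162 in wild type and 29488 and 31232 in knockout, so that knockout replicate 2 lay just above wild-type replicate 2 (log2 -0.15, and from -0.27 to -0.04 when either wild-type array was left out). Ndufb9, like Ndufa6 a subunit that binds the acyl carrier protein, gave 38195 and 41693 against 37755 and 37705, lower without overlap by 5.54%, and without wild-type replicate 2 the log2 difference was -0.02 in place of -0.08. Ndufb5 gave 131452 and 115245 against 108321 and 129560, with overlapping groups (log2 -0.06). The weaker probe sets of Ndufb6 and Ndufb10 lay under the filter, with 122 and 140 against 138 and 270 for Ndufb6 and 89.3 and 222 against 51.3 and 113 for Ndufb10.

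Ndufab1, the mitochondrial acyl carrier protein, sits in both arms of the complex and also carries the growing chain in mitochondrial fatty acid synthesis. It gave 32003 and 40757 in wild type and 31370 and 31043 in knockout. Both knockout arrays lay below both wild-type arrays, but wild-type replicate 1 was close to them, and without wild-type replicate 2 the log2 difference was -0.04 in place of -0.21.

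**Figure D3:**
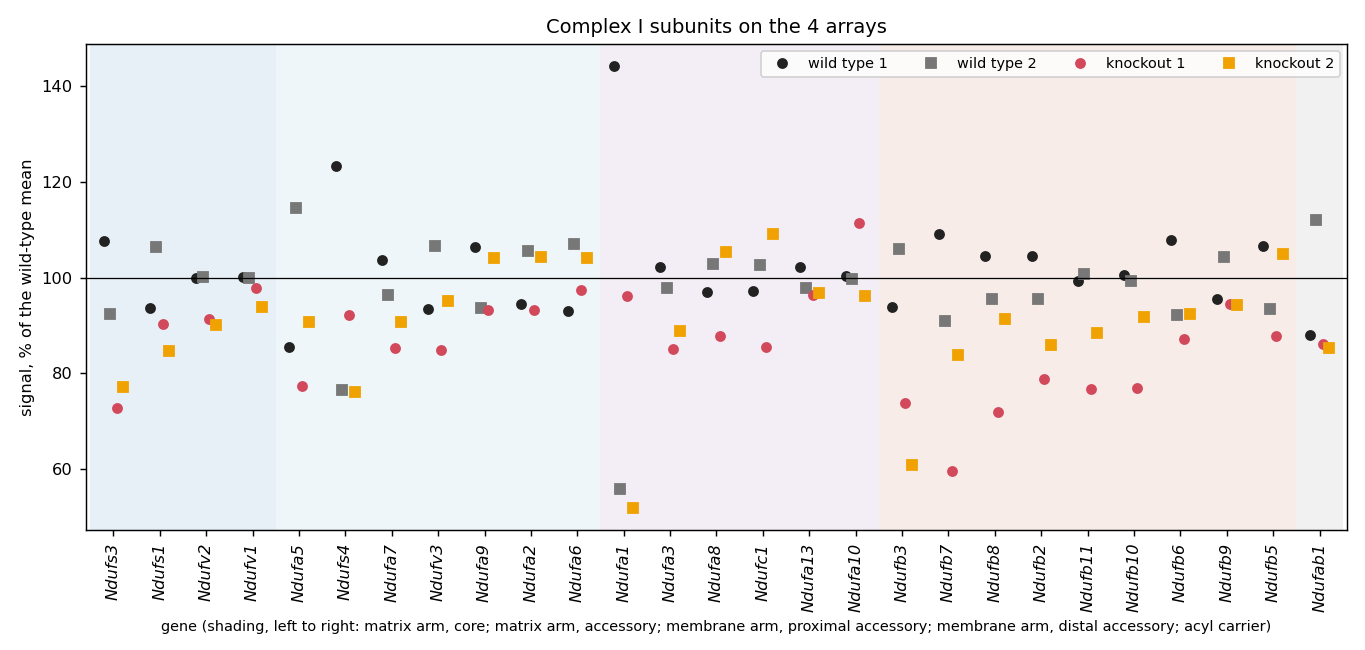
Signal of each complex I gene kept on the 4 arrays, as a percent of its wild-type mean (y axis; x axis, genes by position in the complex, with the lowest log2 difference first). Circles are replicate 1 and squares replicate 2. In the deposited signals, the knockout arrays lie below both wild-type arrays for all 4 matrix core genes and for 7 of the 9 Ndufb genes. The groups overlap for most of the other accessory subunits. Of the core genes, Ndufs3 alone stayed without overlap after quantile normalization or scaling to the cardiomyocyte markers.

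**Figure D4:**
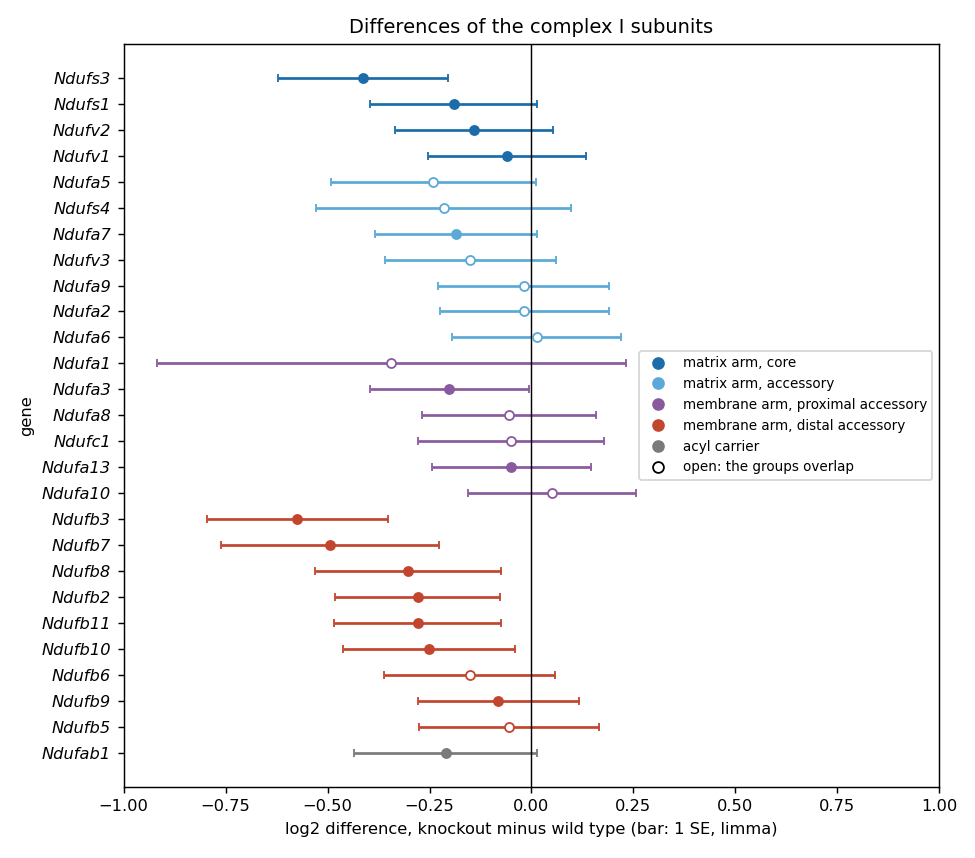
Log2 difference, knockout minus wild type (x axis), of the 27 complex I genes kept (y axis), with bars of 1 SE from limma's fit; filled points are genes whose groups did not overlap. Differences run from -0.57 (Ndufb3) to 0.05 (Ndufa10), and none passed the threshold.

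Genes listed as assembly factors of complex I, for the most part proteins that help to build the complex without staying in it, showed no common direction. Of 25 such genes listed, 9 were measured and kept, 4 with a lower mean and 5 with a higher one. Without overlap, 2 were lower (22.2%, against 16.7% of all probe sets) and 1 higher (11.1%, against 20.7%). The median was 0.01. Without wild-type replicate 1 or 2 that median was -0.21 or 0.16. Foxred1, an oxidoreductase-like assembly factor, gave 4056 and 3462 in wild type and 6139 and 4378 in knockout (log2 0.47, SE 0.26, limma adjusted p = 0.810). Tmem126a, a membrane protein of the assembly machinery, gave 7104 and 6473 against 5428 and 5525 (log2 -0.31, SE 0.20). Lyrm2 gave 740 and 1023 against 814 and 485, with overlapping groups (log2 -0.47, SE 0.35). Tmem70, named after its values were seen as the other gene lower without overlap, gave 6584 and 6710 against 5554 and 5903 (log2 -0.22). Aifm1 (log2 0.01), whose value was the median, and Bcap31 (log2 0.25) are also among the 9, with overlapping groups. None of the 9 passed.

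The rest of the respiratory chain was measured on the same 4 arrays. In 25 genes kept of complexes II to IV and cytochrome c, 15 had a lower mean. Without overlap, 9 were lower (36%, against 16.7% of all probe sets) and 3 higher (12%, against 20.7%). Those 3 were Sdhc, Sdhd and Uqcr10, named after their values were seen. The median was -0.10. That median was -0.02 without knockout replicate 1 and 0.02 after scaling to the cardiomyocyte markers. ATP synthase had a median of -0.03 over 15 genes, with 9 lower. Of these 15, 2 were lower without overlap (Atp5e and Atpif1), 13.3% against 16.7% of all probe sets. Another 5 were higher without overlap (Atp5g2, Atp5j, Atp5j2, Atp5k and Atp5pb), 33.3% against 20.7%. All 7 were likewise named after their values were seen. Atp5pb (log2 0.85) and Atp5j2 (log2 1.09) were the 2 with an unadjusted p under 0.05. Neither passed (limma adjusted p = 0.694 for both). Atp5j2 had a wild-type mean of 228, under the level of the filter, and a knockout mean of 495. It was kept through its knockout signals, so its place among the genes higher in knockout depends on that selection. The direction of the median turned in 5 of 15 alternatives. These values are set side by side, and the difference between the complexes was not tested.

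The gene of the coactivator PGC-1α, Ppargc1a, had signals of 368 and 435 in wild type and 793 and 589 in knockout. It was higher on both knockout arrays (log2 0.77, SE 0.25) and did not pass (limma adjusted p = 0.694).

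**Figure D5:**
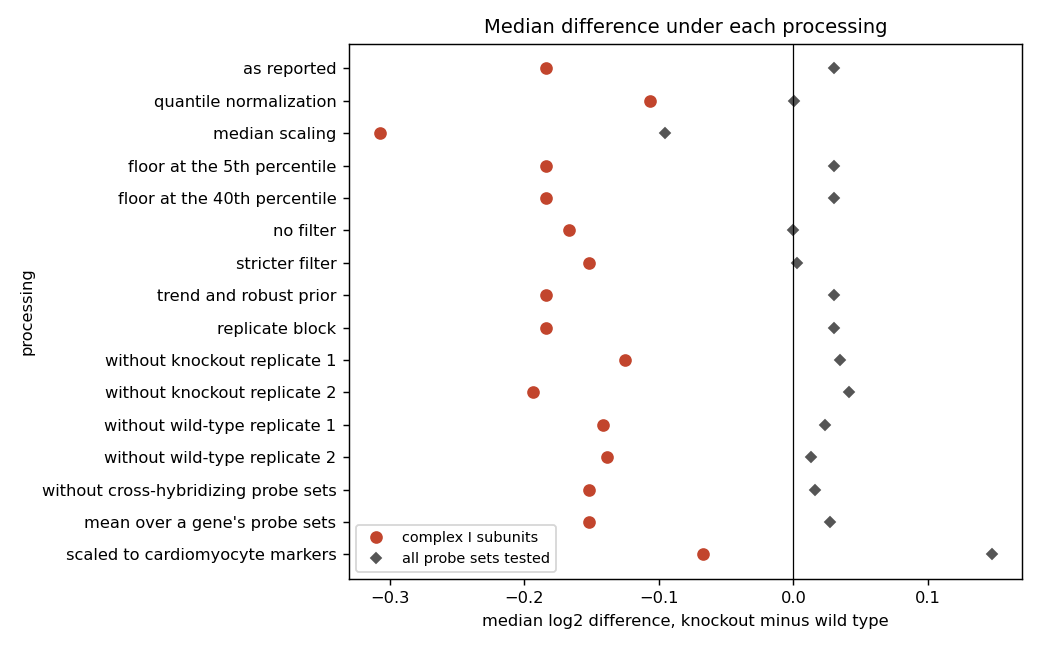
Median log2 difference, knockout minus wild type (x axis), of the complex I genes (circles) and of all probe sets tested (diamonds) as reported and under each of 15 alternatives (y axis). The complex I median stays below 0, from -0.31 after median scaling to -0.07 after scaling to the cardiomyocyte markers, and below the median of all probe sets throughout.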

How the data were processed

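Total RNA from ventricle was hybridised to 4 arrays, 2 per genotype, per the labels. The deposited table holds a linear intensity per probe set; its mean without the top and bottom 2% of probe sets is 1501 on every array. Software, background correction and genome build are not given in the sources used here. Samples were grouped by title, without pairing.

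Symbols came from the platform annotation, and 10817 of 10833 probe sets with 1 symbol matched RefSeq gene identifiers (GRCm38.p6); 396 had several and 1193 none. After removal of 66 control probe sets, those with a mean under the 40th percentile (350.6) were left out. Signals were floored at the 20th percentile (110) and log2-transformed. Groups were compared with limma 3.58.1 (lmFit, eBayes) in R 4.3.3, adjusted over 7453 probe sets. The fit was run on simulated data with planted shifts in strong probe sets, far larger than the differences of the members. Shifts of the members' size, group medians and counts without overlap were not simulated. The number of arrays limits the precision.

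The members, gene lists and tests were chosen with earlier results of these data known, so their direction is not independent evidence. Values on every array are given for the 3 members of lowest p in each group, members higher in knockout, and members with several probe sets or under the filter; other members are given beside them. Of the assembly factors, the 3 of lowest p are given. Alternatives were quantile normalization, median scaling, floors at the 5th and 40th percentiles, no filter or one at the 60th percentile, a trend and robust prior, the sample number as a block, leaving out each array, leaving out cross-hybridizing probe sets, averaging a gene's probe sets, and, added later, scaling to cardiomyocyte markers. Sample numbers are not stated to pair samples. With 2 pairs, the replicate differences of knockout and wild type correlated at 0.01 over all 7453 probe sets and at 0.57 over the 27 complex I genes. The 0.57 leans on Ndufa1, which had the widest replicate difference in both groups at weak signals. It gave 730 and 283 in wild type and 488 and 263 in knockout. The 0.57 therefore does not show a pairing shared by the 27 genes.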

Additional observations from a re-analysis of the deposited data

How the results depend on the processing

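Over 15 alternatives, 0 of 30 complex I probe sets passed the threshold, and 405 of 438 values kept their direction. Changing the floor, filter, prior or block, or leaving out other probe sets, does not alter the log2 value of a probe set above the floors. Much of that agreement was therefore fixed in advance. The members' median was -0.11, -0.31 and -0.067 after quantile normalization, median scaling and scaling to cardiomyocyte markers, the last chosen after seeing the data; without any 1 array it was -0.19 to -0.13. Under the same scalings 9, 18 and 7 members were lower without overlap, as were 18.2%, 27.1% and 8.88% of all probe sets. Without any 1 array 18 to 23 were, when 31.5% to 32.4% of all probe sets were, with the 23 seen without knockout replicate 2. In the order of those 3 scalings, the median was -0.081, -0.29 and -0.049 in the matrix core, -0.072, -0.27 and -0.033 in the matrix accessory group, -0.011, -0.18 and 0.065 in the proximal membrane group and -0.0082, -0.22 and 0.016 in complexes II to IV. Under median and cardiomyocyte scaling it was -0.40 and -0.16 in the distal membrane group, -0.12 and 0.12 in assembly factors, and -0.15 and 0.088 in ATP synthase. With a gene's probe sets averaged, the matrix core was -0.13, ATP synthase 0.041 and Ndufa3 0.14; without cross-hybridizing probe sets ATP synthase was 0.020. Without any 1 array, the median was -0.21 to -0.12 in the matrix core, -0.099 to -0.055 in the matrix accessory, -0.12 to -0.047 in the proximal and -0.38 to -0.13 in the distal membrane group, -0.21 to 0.16 in assembly factors, -0.12 to -0.015 in complexes II to IV and -0.096 to 0.061 in ATP synthase.

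Quantile normalization turned Ndufa2 (0.048), Ndufa8 (0.041), Ndufa9 (0.066), Ndufb5 (0.017) and Ndufv1 (0.075). Median scaling turned Ndufa10 (-0.073), Ndufa6 (-0.11) and the weaker Ndufv2 probe set (-0.11). Cardiomyocyte scaling turned Ndufa13 (0.067), Ndufa2 (0.099), Ndufa8 (0.062), Ndufa9 (0.098), Ndufb5 (0.062), Ndufb9 (0.036), Ndufc1 (0.067) and Ndufv1 (0.057). Leaving out 1 array turned Ndufa10 (-0.055 to 0.16), Ndufa1 (-1.03 to 0.34), Ndufa2 (-0.099 to 0.064), Ndufa6 (-0.088 to 0.11), Ndufa8 (-0.19 to 0.076), Ndufa9 (-0.11 to 0.072), Ndufb5 (-0.18 to 0.074), Ndufc1 (-0.23 to 0.13), Ndufs4 (-0.56 to 0.13) and the weaker Ndufv2 probe set (-0.19 to 0.23).

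Over all probe sets, 2 were called under the stricter filter and with a trend and robust prior, where the stronger Esrra probe set (-3.08) passed too. With limma, 0 were called under the lower or higher floor, without a filter, without cross-hybridizing probe sets, with probe sets averaged, or without any 1 array; 403 to 1099 then had an unadjusted p under 0.05. The weaker Esrra probe set was -5.34 at the lower floor, -3.02 at the higher, -4.65 without a filter and -4.68 to -4.61 without any 1 array. With the replicate block the log2 values were those without it (Esrra -4.65), 0 probe sets were called (485 at an unadjusted p under 0.05) and the lowest member p was 0.0910. Under other alternatives some members had an unadjusted limma p under 0.05. With the trend and robust prior these were 3 (lowest 0.0116), beside 540 of all 7453 probe sets. Without a filter they were 4 (lowest 0.0310), beside 1099 of 12422. Median scaling, the higher floor and the stricter filter gave 1 each. The sample numbers are not said to pair the samples. The causes were not tested. With 2 arrays a group, the differences of most members lie within about 1 SE.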
